A study of Ostreococcus tauri with 30 samples.

Results

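The synthesis of amino acids in the marine green picoalga Ostreococcus tauri was followed through 16 KEGG modules, which are named sets of gene families that together carry out a pathway. They were taken by their identifiers from a deposited table of read counts for 236 modules. A list of 18 identifiers was looked for, and M00525 and M00526, both of lysine synthesis, were absent from that table. The 16 modules cover proline (M00015), lysine (M00016 and M00527), methionine (M00017), threonine (M00018), valine and isoleucine (M00019), isoleucine from threonine (M00570), leucine (M00432), serine (M00020), histidine (M00026) and ornithine (M00028). They also cover the shikimate pathway (M00022), tryptophan (M00023), phenylalanine (M00024) and tyrosine by 2 routes (M00025 and M00040). Together they held 4.29% to 5.47% of the module counts of a library.

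Plants and green algae make all of the amino acids that enter proteins, largely in the chloroplast, from carbon skeletons of photosynthesis and from ammonium. Aspartate is the starting point of lysine, threonine and methionine, and threonine is in turn deaminated to begin isoleucine, whose later enzymes also make valine. The shikimate pathway leads to chorismate, from which tryptophan, phenylalanine and tyrosine branch off. Serine can be made from 3-phosphoglycerate or recovered from glycine in photorespiration, the salvage route for the product that Rubisco makes with oxygen. Copper is a cofactor of electron carriers of photosynthesis and respiration, and an excess of it is toxic.

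RNA came from liquid cultures of strain RCC745 in exponential growth, kept in aerated flasks with 12 h of light and 12 h of dark. All groups shared an artificial seawater medium with Keller nutrients, including nitrate at 0.88 mM and phosphate at 22 µM, and vitamins. The 10 groups of 3 libraries were controls at 0, 1, 4 and 12 h, a lower copper addition at 1, 4 and 12 h, and a higher copper addition at 1, 4 and 12 h. The sample labels give the additions as 25 and 250 µM and the treatment protocol gives 0.4 and 2 µM, so they are called lower and higher copper here. The sources used here do not give the hour of the light-dark cycle at which sampling began, so a change with time in the controls cannot be told apart from a change with the cycle. The labels do not say that replicates were separate cultures, so p-values measure only how far these samples lay apart, which may be technical.

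Module counts per library ran from 27534827 to 62565779, and the smallest count of any of the 16 modules in any library was 3500. In 28 libraries the module counts summed to 9.89 to 12.2 times the gene counts of the same library. Control 1 h replicate 3 stood at 6.06 and control 4 h replicate 3 at 20.1, and with the gene columns of these 2 libraries exchanged the values were 11.03 and 11.01. The labels of this pair are in doubt in 1 of the 2 tables, and fold changes below that rest on controls at 1 or 4 h are given, or their calls described, with both libraries left out as well. Module levels are given in CPM, the counts of a module per 1e+06 module counts of the library after scaling by TMM, a method that equalises the bulk of the modules between libraries. A level also depends on how many genes a module has and how long they are, so levels are compared between groups and not between modules. KEGG gives the isoleucine module M00570 and the valine and isoleucine module M00019 common later steps, yet M00570 held fewer counts than M00019 in all 30 libraries. The sources used here do not say how the counts of shared families were divided.

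Isoleucine synthesis from threonine (M00570), which begins with threonine deaminase, had the widest range of group means among the 16 modules. These means ran from 2253 CPM in the control at 0 h to 5127 CPM at 4 h after higher copper, a 2.28-fold range. In the controls the libraries read 2018, 2339 and 2402 CPM at 0 h, and 2561, 2610.3 and 3217 CPM at 1 h. They read 2825, 2822 and 3831 CPM at 4 h, and 3561, 4619.8 and 4123 CPM at 12 h. All later control libraries were above all 3 libraries of 0 h, and replicate 3 was the highest of its group at 1 and 4 h. After higher copper the libraries stood at 3486, 4019 and 3693 CPM at 1 h, at 5113, 5157 and 5112 CPM at 4 h, and at 5072, 4531 and 4998 CPM at 12 h. At 1 and 4 h these groups did not overlap with their controls, and at 12 h they did.

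After higher copper, isoleucine synthesis rose by 0.42 ± 0.12 at 1 h (log2 fold change ± SE; edgeR adjusted p = 0.0454), then by 0.70 ± 0.12 at 4 h (adjusted p = 0.000589), a 1.62-fold difference. At 12 h it stood 0.25 ± 0.12 above its control and did not pass (adjusted p = 0.166). With both doubted controls left out, they were 0.51 ± 0.12 for 1 h (adjusted p = 0.0226) and 0.86 ± 0.12 for 4 h (0.000144). The 4 h call held under all alternatives run. The 1 h call was lost with the doubted labels exchanged (adjusted p = 0.228), in a fit of only these 2 groups (0.244), and without any 1 of 22 libraries (0.0502 to 0.276). It held without the remaining 8, which were replicate 1 of the controls at 0 and 12 h, of lower copper at 1 and 12 h and of higher copper at 1 h, and replicate 3 of the controls at 1 and 4 h and of lower copper at 12 h.

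Lower copper left this module at 2990.3, 3534 and 3716 CPM at 1 h, 3878, 3848 and 4409 CPM at 4 h, and 4987, 4312 and 4357 CPM at 12 h. At 4 h these libraries were all above the controls, by 0.36 ± 0.12, which did not pass (edgeR adjusted p = 0.302, unadjusted p = 0.00753; 0.50 ± 0.12 without the doubted controls, adjusted p = 0.12). Higher copper stood 0.34 ± 0.12 above lower copper at 4 h, with no overlap, and this did not pass either (adjusted p = 0.131; 95% confidence interval 0.09 to 0.59).

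Isoleucine synthesis also rose with time in the controls, by 0.49 ± 0.12 from 0 to 4 h and by 0.86 ± 0.12 from 0 to 12 h (edgeR adjusted p = 0.0225 and 7.22e-05). The 12 h call held under all alternatives run. The 4 h call was lost with both doubted controls left out (0.31 ± 0.12, adjusted p = 0.271), with their labels exchanged (0.126) and in a fit of only the 2 groups (0.0507). Leaving out any of 9 single libraries ended it as well (adjusted p 0.0501 to 0.32): from the controls, replicates 1 and 3 at 0 h, 1 at 1 h, 3 at 4 h and 3 at 12 h; from lower copper, replicate 2 at 1 h and replicates 1 and 2 at 4 h; and from higher copper, replicate 3 at 1 h.

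**Figure D1:**
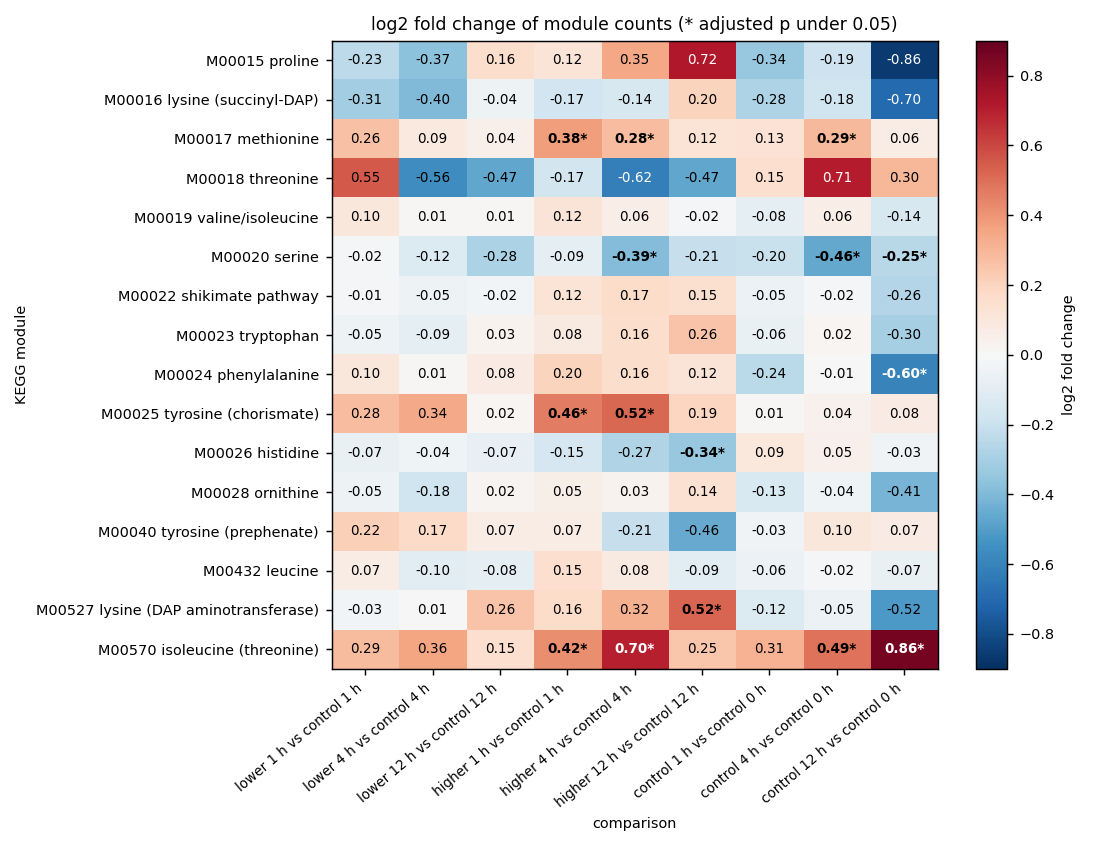
log2 fold change of module counts for the 16 amino acid synthesis modules (rows) in 9 comparisons (columns): each copper addition against the control of the same time, and later controls against the control at 0 h. Bold values with a star passed an edgeR adjusted p under 0.05, and the isoleucine module M00570 at 4 h after higher copper reads 0.70 and at 12 h in controls 0.86.

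The other modules of branched-chain amino acids did not pass the test in any comparison. Valine and isoleucine synthesis (M00019) and leucine synthesis (M00432), which branches off the valine route, were called in 0 of 16 comparisons by edgeR. Group means of M00019 ran from 8268 CPM (higher copper 12 h) to 10054 CPM (higher copper 4 h), and those of M00432 from 3275 to 3909.6 CPM. At 4 h after higher copper M00019 differed from its control by 0.06 ± 0.12, with a 95% confidence interval from -0.20 to 0.32. M00432 differed by 0.08 ± 0.13, with an interval from -0.20 to 0.36. Without the doubted controls the intervals ran from -0.24 to 0.39 and from -0.26 to 0.45. None of the 4 intervals reaches the estimate of M00570, 0.70 with all libraries and 0.86 without the doubted controls. That estimate has a spread of its own (SE 0.12 in both fits), and differences between modules were not tested.

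Methionine synthesis (M00017), which runs from aspartate through homoserine and feeds S-adenosylmethionine, the methyl donor of the cell, rose at 1 and 4 h after higher copper. The controls held 8941, 9048 and 8879 CPM at 1 h and 9915, 9866 and 10339.7 CPM at 4 h. Higher copper held 12040.5, 11945 and 10863.5 CPM at 1 h and 13088, 11262 and 12219 CPM at 4 h. There was no overlap at either time, and the module rose by 0.38 ± 0.08 and 0.28 ± 0.08 (edgeR adjusted p = 0.0115 and 0.025). At 12 h the groups overlapped, at 9407, 8078 and 8233 CPM in controls and 9034, 8796 and 10159 CPM after higher copper. Lower copper at 1 h, at 10505, 10225 and 11547 CPM, was also above all 3 controls, by 0.26 ± 0.08, which did not pass (adjusted p = 0.289, unadjusted p = 0.00303; 0.24 ± 0.10 without the doubted controls, adjusted p = 0.477). From 0 h, at 8025, 8689 and 7882 CPM, the controls rose by 0.29 ± 0.08 to 4 h (adjusted p = 0.0341).

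With both doubted controls left out, all 3 of these methionine calls were lost, at 0.35 ± 0.10, 0.31 ± 0.10 and 0.25 ± 0.10 (edgeR adjusted p = 0.0712, 0.0805 and 0.308). The copper calls were lost in fits of only the groups compared (0.244 and 0.0623), and the 1 h call and the control call with the doubted labels exchanged (0.11 and 0.293). The 1 h call was lost without any of the 3 controls at 1 h or without higher copper 1 h replicate 2 (0.0503 to 0.109). The 4 h call was lost without any of the 3 controls at 4 h or without replicates 1 or 3 of higher copper 4 h (0.0699 to 0.157). The control call was also lost with DESeq2 size factors (0.0681), in a fit of only the 2 groups (0.075) and without any 1 of 18 libraries (0.075 to 0.284). The 12 libraries without which it held were all 3 of higher copper at both 4 and 12 h, replicate 1 at 1 h and replicates 2 and 3 at 12 h of lower copper, and, of the controls, replicate 2 at 0 h, 2 at 1 h and 1 at 12 h.

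Threonine synthesis (M00018), the other branch from homoserine, had a group mean as high as 5143 CPM (control 4 h) and as low as 2793 CPM (lower copper 12 h), yet it was called in 0 of 16 comparisons by edgeR. Libraries far above the others of their group lay in 3 groups. The controls at 4 h read 3233, 7829 and 4366 CPM, those at 12 h read 3241, 2573 and 5791 CPM, and lower copper at 1 h read 3097, 5086 and 7164 CPM. In the other 7 groups every library lay between 2282 and 4069 CPM. After higher copper at 4 h the module differed from its control by -0.62 ± 0.29 (adjusted p = 0.181; -0.72 ± 0.34 without the doubted controls, adjusted p = 0.201), and the groups overlapped. The standard error of threonine synthesis in that comparison, 0.29, stood beside 0.08 for methionine synthesis.

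Lysine synthesis, which in plants runs through diaminopimelate, was measured in 2 modules that differ in how that intermediate is reached. Both run from aspartate to lysine with other steps in common, so the 2 are not separate measurements. M00527 held fewer counts than M00016 in all 30 libraries. Counts of M00016 do not show that the steps particular to its route were expressed. The aminotransferase route (M00527), the one described in plants and algae, rose by 0.52 ± 0.17 at 12 h after higher copper (edgeR adjusted p = 0.0417). The controls at 12 h held 672, 661 and 568 CPM, against 877, 970.3 and 881 CPM after higher copper, with no overlap. At 0 h the controls read 795, 909 and 1023 CPM, all above those of 12 h. From 0 to 12 h the controls lay lower by 0.52 ± 0.17, which did not pass by edgeR (adjusted p = 0.0603) and did by DESeq2 (adjusted p = 0.0335). Higher copper at 12 h and controls at 0 h had means of 909 and 909 CPM. The copper call was lost with both doubted controls left out (adjusted p = 0.0533). It was lost without any of the 6 libraries compared, and without replicate 1 of lower copper 4 h, replicate 2 of control 0 h or replicate 3 of lower copper 1 h (0.05 to 0.205).

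The succinyl-DAP route (M00016), known from bacteria, was called in 0 of 16 comparisons by edgeR. It lay 0.20 ± 0.30 above its control at 12 h after higher copper (adjusted p = 0.699). From 0 to 12 h in controls it lay 0.70 ± 0.30 lower with no overlap (adjusted p = 0.158), at 1554, 1392 and 1175 CPM against 2046, 1902 and 2730.3 CPM. A fit of only these 2 groups called both lysine modules in the controls (adjusted p = 0.0427 for M00016 and 0.0429 for M00527).

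**Figure D2:**
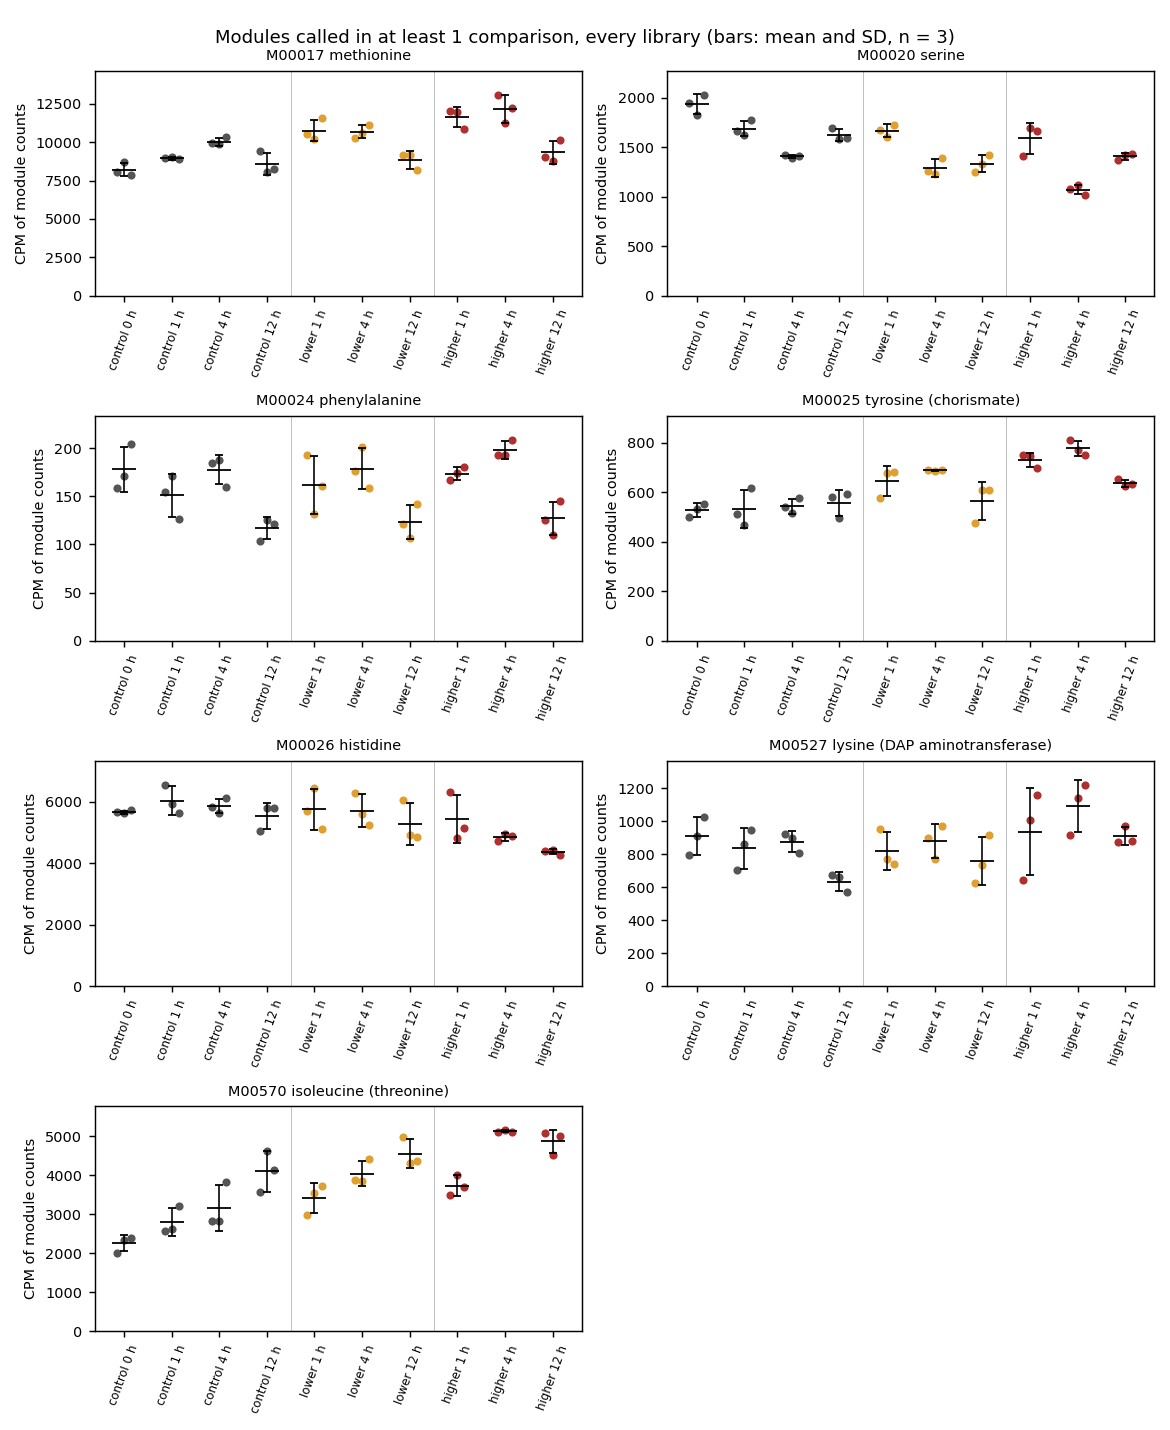
CPM of module counts in all 30 libraries for the 7 amino acid synthesis modules called in at least 1 comparison; points are libraries, bars the mean and SD of 3, grey controls, yellow lower copper and red higher copper. In the isoleucine panel the higher copper libraries at 4 h lie between 5112 and 5157 CPM, above all 3 controls of that time, and in the serine panel they lie between 1022 and 1114 CPM, below all 3.

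Serine synthesis from 3-phosphoglycerate (M00020) fell with time in the controls and fell after higher copper. In controls it stood at 1943, 1826 and 2029 CPM at 0 h, 1665, 1621 and 1769.6 CPM at 1 h, 1420.5, 1387 and 1412 CPM at 4 h, and 1696, 1581 and 1596 CPM at 12 h. The levels at 4 h were below those of every other control time. From 0 h it fell by 0.46 ± 0.075 at 4 h (edgeR adjusted p = 0.000684), a call that held under all alternatives run. At 12 h it had fallen by 0.25 ± 0.075 (adjusted p = 0.0365). That later call was lost with both doubted controls left out (0.0849), with their labels exchanged (0.0951) and in a fit of only the 2 groups (0.149). Leaving out any of 15 libraries also ended it (0.0503 to 0.226), namely, from the controls, replicates 1 and 3 at both 0 and 1 h, 3 at 4 h, and 2 and 3 at 12 h; from lower copper, replicates 2 and 3 at 1 h, all 3 at 4 h and 1 at 12 h; and from higher copper, replicates 2 and 3 at 1 h.

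At 4 h after higher copper the libraries held 1079, 1114 and 1022 CPM, the lowest group mean of the series for serine synthesis (1072 ± 46.7 CPM, SD, n = 3), against 1406 ± 17.2 CPM in controls. The module fell by 0.39 ± 0.075 (edgeR adjusted p = 0.00119), and by 0.39 ± 0.095 with both doubted controls left out (adjusted p = 0.0113). This call held under all alternatives run. Lower copper lay between, at 1255, 1226 and 1393 CPM at 4 h, and overlapped with the control. Higher copper stood 0.27 ± 0.075 below lower copper at 4 h with no overlap, which did not pass by edgeR (adjusted p = 0.0725) and passed by DESeq2 (adjusted p = 0.0115).

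At 12 h both additions held serine synthesis below all 3 controls. Higher copper read 1367, 1424 and 1431 CPM (0.21 ± 0.075 lower, edgeR adjusted p = 0.0601) and lower copper 1252, 1331 and 1417 CPM (0.28 ± 0.075 lower, adjusted p = 0.108). Neither passed by edgeR, and both passed by DESeq2 (adjusted p = 0.0458 and 0.0139).

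Photorespiration (M00532), a pathway in which serine is recovered from glycine, rose at 4 h after higher copper. Its counts are summed over the module and do not show which of its steps rose. Its level was 27363 ± 2668 CPM in controls and 43978 ± 2307 CPM after higher copper (log2 0.68 ± 0.099, edgeR adjusted p = 9.73e-05; 0.77 without the doubted controls, adjusted p = 0.000173). It rose with time in the controls as well, by 0.43 ± 0.099 from 0 to 4 h (adjusted p = 0.0145) and by 0.59 ± 0.099 from 0 to 12 h (adjusted p = 0.000514, under all alternatives run). Cysteine synthesis from serine (M00021) was called in 0 of 16 comparisons by edgeR. At 12 h after higher copper it held 5468 to 6492 CPM against 4389 to 4786 CPM in controls, without overlap, and did not pass. At 1 and 4 h the ranges overlapped.

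Of the 5 modules of aromatic amino acids, tyrosine synthesis from chorismate (M00025) was the only one called in a copper comparison by edgeR with all libraries. Its controls at 1 h held 512, 467 and 617 CPM, and higher copper 749, 745 and 697 CPM. At 4 h the controls held 540.2, 515 and 575 CPM and higher copper 811, 771 and 750.4 CPM. The groups did not overlap, and the module rose by 0.46 ± 0.10 and 0.52 ± 0.10 (adjusted p = 0.0143 and 0.00143), a 1.37-fold and a 1.43-fold difference. Without the doubted controls both values were 0.56 ± 0.11 (adjusted p = 0.00831 and 0.00323). At 12 h higher copper read 652, 624 and 634 CPM against 581, 497 and 592 CPM, 0.19 ± 0.10 above with no overlap, which did not pass (adjusted p = 0.2). The 4 h call held under all alternatives run. The 1 h call was lost in a fit of only the 2 groups (0.244) and without replicates 1 or 2 of control 1 h or replicate 2 of higher copper 1 h (0.0926 to 0.109).

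Tyrosine synthesis from chorismate was not called with time in the controls, where its group means ran from 528 to 556 CPM. Lower copper held 577, 678 and 682 CPM at 1 h and 688, 685 and 691 CPM at 4 h. At 4 h these libraries were all above the controls and all below higher copper. The difference of lower copper from the control, 0.34 ± 0.10, did not pass (edgeR adjusted p = 0.237, unadjusted p = 0.00301; 0.36 ± 0.11 without the doubted controls, adjusted p = 0.195). The difference of higher from lower copper, 0.18 ± 0.10, did not pass either (adjusted p = 0.354, 95% confidence interval -0.04 to 0.39).

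The second route to tyrosine (M00040), through arogenate, also called pretyrosine, was called in 0 of 16 comparisons by edgeR. At 12 h after higher copper it read 1286, 1109 and 1089 CPM against 1437, 1533 and 1811 CPM in controls. It lay 0.46 ± 0.19 lower with no overlap and did not pass (adjusted p = 0.099). A fit of only these 2 groups called it (adjusted p = 0.0461), as did the fit without higher copper 1 h replicate 1 (0.0479).

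The shikimate pathway (M00022) and tryptophan synthesis (M00023) were called in 0 of 16 comparisons by edgeR. At 4 h after higher copper both were above all 3 controls, by 0.17 ± 0.14 and 0.16 ± 0.14 (adjusted p = 0.55 and 0.582; 0.17 ± 0.17 and 0.15 ± 0.18 without the doubted controls). Phenylalanine synthesis (M00024), the module with the lowest mean CPM of the 16, fell in controls from 159, 171 and 204 CPM at 0 h to 104, 126 and 122 CPM at 12 h (log2 -0.60 ± 0.16, edgeR adjusted p = 0.019). This call was lost in a fit of only the 2 groups (0.082) and without replicates 1 or 3 of control 12 h or replicate 3 of control 0 h (0.0524 to 0.118). The group means at 12 h were 123 CPM after lower copper, 127 CPM after higher copper and 117 CPM in controls.

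Histidine synthesis (M00026), which starts from phosphoribosyl pyrophosphate and makes an amino acid that binds metals, fell at 12 h after higher copper. The libraries read 4402, 4426 and 4272 CPM, the lowest group of the series, against 5062, 5781 and 5782 CPM in controls. The module fell by 0.34 ± 0.10 (edgeR adjusted p = 0.0245), and by 0.34 ± 0.097 with both doubted controls left out (adjusted p = 0.0222). At 4 h the higher copper libraries, at 4708, 4951 and 4895 CPM, were below the controls at 5832, 5632 and 6108 CPM. The difference of -0.27 ± 0.10 did not pass (adjusted p = 0.12; -0.24 ± 0.11 without the doubted controls, adjusted p = 0.194). Lower copper at 12 h overlapped with its control (-0.07 ± 0.10). The 12 h call was lost in a fit of only the 2 groups (0.0573) and without replicates 2 or 3 of control 12 h or of higher copper 12 h (0.0546 to 0.103). Without higher copper 1 h replicate 1, the 4 h difference was called (adjusted p = 0.0485).

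Of the modules that start from glutamate, proline synthesis (M00015), whose product many plants store under stress, and ornithine synthesis (M00028), a step toward arginine and polyamines, were called in 0 of 16 comparisons by edgeR. Proline synthesis had the widest spread among the 16 modules, with an average SD of 28.7% of the group mean, against 4.84% for serine synthesis. At 12 h after higher copper it read 406, 640.3 and 589 CPM, all above the controls at 389.6, 337 and 267 CPM (log2 0.72 ± 0.37, adjusted p = 0.188). A fit of only these 2 groups called this difference (adjusted p = 0.0461). At 0 h the controls read 549, 522 and 732 CPM, all above those of 12 h (log2 of 12 h against 0 h -0.86 ± 0.37, adjusted p = 0.158), and a fit of only these 2 groups called that difference (adjusted p = 0.0307). The higher copper libraries at 12 h overlapped with the controls at 0 h. Ornithine synthesis lay 0.41 ± 0.14 lower at 12 h than at 0 h in controls with no overlap (adjusted p = 0.0603), and DESeq2 called it (adjusted p = 0.036).

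**Figure D3:**
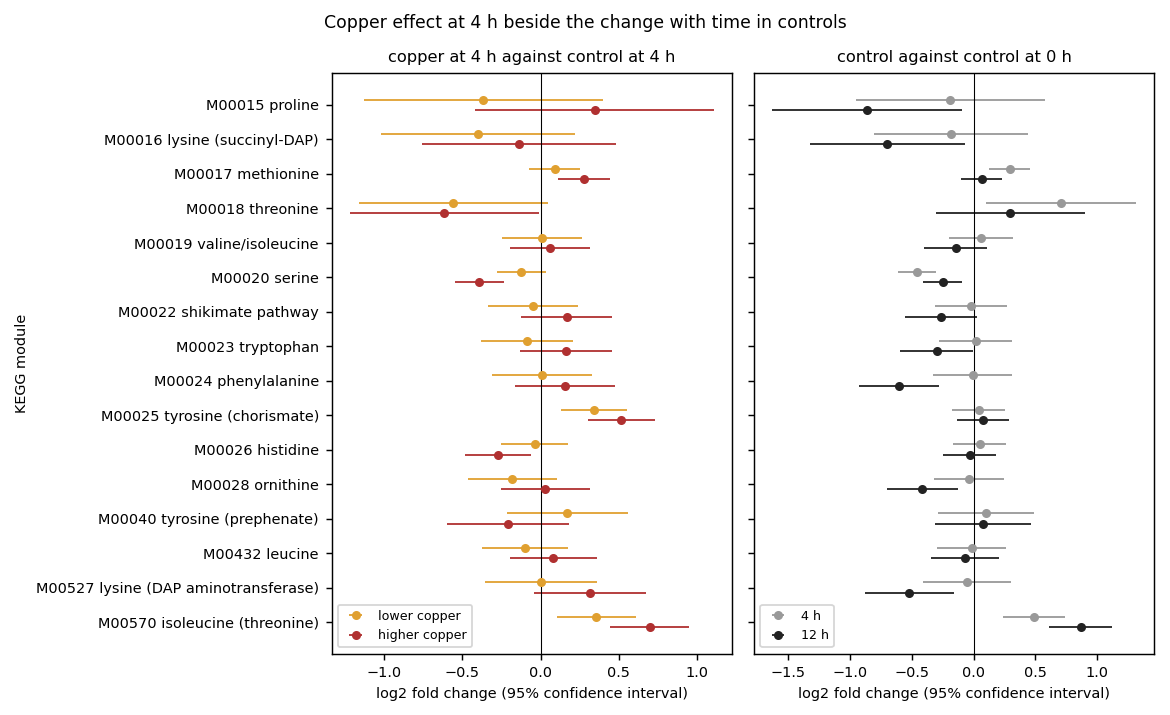
log2 fold change with its 95% confidence interval for the 16 modules, left for each copper addition against the control at 4 h and right for controls at 4 and 12 h against 0 h. For isoleucine synthesis (M00570) and serine synthesis (M00020) the higher copper value at 4 h and the control change from 0 to 4 h have the same sign (0.70 and 0.49, -0.39 and -0.46), while for tyrosine synthesis from chorismate (M00025) the control change is 0.04 (-0.02 without the doubted controls) beside a copper value of 0.52.

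Counted over the 16 modules, higher copper at 1 h called 3 upward and 0 downward, where 5.08% of all 236 modules were called. Of all 236, 2.97% rose and 2.12% fell. The 4 h counts were 3 higher and 1 lower, where 8.47% of all modules were called. Of all 236, 3.39% rose and 5.08% fell. By 12 h they were 1 higher and 1 lower, where 16.5% of all modules were called. Of all 236, 8.9% rose and 7.63% fell. The shares among the 16 were 18.8%, 25% and 12.5%. The median log2 fold change of the 16 was 0.12 at 1 and 4 h and 0.13 at 12 h, beside 0.01, 0.02 and -0.00074 over all 236. With replicate 1 or 2 of the 1 h controls left out, or replicate 2 of higher copper, 0 were called at 1 h by edgeR (3 at an unadjusted p under 0.05 in each of these fits, and 3 called by DESeq2 with all libraries). A fit of only the groups compared also called 0 at 1 h, where 0 of all 236 modules were called. With both doubted controls left out the counts at 1, 4 and 12 h were 2, 3 and 1, where 2.54%, 7.63% and 14.8% of all modules were called.

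At 12 h the count fell to 0 without replicates 2 or 3 of control 12 h or of higher copper 12 h (3 to 6 at an unadjusted p under 0.05 by edgeR). It fell to 1 without replicate 1 of either group, replicate 1 of lower copper 4 h, replicate 2 of control 0 h or replicate 3 of lower copper 1 h. At 4 h it stayed between 3 and 5 without any single library.

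Lower copper gave 0 called modules among the 16 by edgeR at 1, 4 and 12 h, where 0, 0 and 0.424% of all 236 modules were called. At an unadjusted p under 0.05 there were 3, 2 and 1, beside 20, 16 and 16 of all 236. DESeq2 called 0, 0 and 1, beside 1, 0 and 4 of all 236. Serine synthesis was called at 12 h without lower copper 12 h replicate 3 (edgeR adjusted p = 0.0319). Higher against lower copper likewise gave 0 at 1, 4 and 12 h by edgeR (0, 0.847% and 0.847% of all modules). Here 1, 4 and 2 had an unadjusted p under 0.05, beside 9, 42 and 42 of all 236. The counts by DESeq2 were 0, 1 and 0, beside 0, 11 and 14 of all 236. Without lower copper 12 h replicate 3, the arogenate route to tyrosine (M00040) was called at 12 h (log2 -0.71, adjusted p = 0.0318). With all libraries, the amino acid synthesis modules called after higher copper are thus not shown by edgeR to differ between the 2 additions.

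Whether a copper effect changed between consecutive times was tested directly, and 0 of the 16 modules were called by edgeR in any of the 4 tests. Those with an unadjusted p under 0.05 were 1, 1, 1 and 2, beside 6, 4, 4 and 15 of all 236. DESeq2 called 0 of the 16 in each test, beside 0, 0, 0 and 1 of all 236. Of all 236 modules 0 were called in these tests by edgeR. For isoleucine synthesis the higher copper effect at 12 h was 0.45 ± 0.17 smaller than at 4 h (adjusted p = 0.597, unadjusted p = 0.0151; -0.62 ± 0.16 without the doubted controls, adjusted p = 0.177). For serine synthesis it was 0.31 ± 0.11 more negative at 4 h than at 1 h (adjusted p = 0.995, unadjusted p = 0.00827; -0.32 ± 0.14 without the doubted controls, adjusted p = 0.995). Neither difference passed.

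Time alone gave 0 called modules among the 16 at 1 h by edgeR (0.424% of all modules). There 2 had an unadjusted p under 0.05, beside 20 of all 236, and DESeq2 called 0, beside 5 of all 236. The 4 h controls gave 2 modules upward and 1 downward (5.08% of all modules called, with 2.97% of all upward and 2.12% of all downward). The 12 h controls gave 1 upward and 2 downward (8.47% of all, 4.24% in each direction). At 12 h 5 of the 16 had a positive log2 fold change, and the median was -0.20, beside 0.02 over all 236. With both doubted controls left out, 1 was called at 4 h and 2 at 12 h, where 0.424% and 5.93% of all modules were called. At 4 h the count was also 1 without any of the 9 libraries named above for isoleucine synthesis. At 12 h it was 1 without replicate 3 of control 0 h or of control 12 h, and 5 without higher copper 1 h replicate 1 or lower copper 12 h replicate 3. These controls enter both the time and the copper comparisons, so the 2 sets of values are not independent of each other.

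Several modules varied together between libraries of 1 group. Proline, lysine (M00016), shikimate, tryptophan and ornithine synthesis were chosen for this description after their values were seen. In 6 of the 10 groups these 5 modules had their lowest level in the same library. The arogenate route to tyrosine (M00040), chosen in the same way, ran against proline synthesis. In 9 of the 10 groups the library lowest in proline synthesis was the highest in M00040. The other modules of the set were not counted against M00040. At 12 h after lower copper, proline synthesis read 180.2, 334 and 596 CPM and M00040 read 2174, 1630.2 and 1214 CPM in replicates 1, 2 and 3. At 1 h after higher copper they read 219.9, 684 and 639 CPM and 2129, 1209 and 1301 CPM.

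Replicate 1 of these 2 groups was the lowest of its group in 11 of the 16 modules in each case. It also had the lowest ratios of module counts to gene counts among the 28 undoubted libraries, 9.89 for lower copper and 9.90 for higher copper, against 11.2 to 12.1 in the other 4 libraries of these groups. Counts of this kind were not limited to libraries with the lowest ratios. Control 4 h replicate 2 (ratio 11.7) and lower copper 1 h replicate 2 (ratio 10.4) were each the lowest of their group in 9 of the 16 modules. Control 0 h replicate 3 (ratio 11.3) was the highest of its group in 13. Several of the 16 modules varied together, and the same count over all modules is not given here. The part of the ratio of module to gene counts in the result was not tested.

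**Figure D4:**
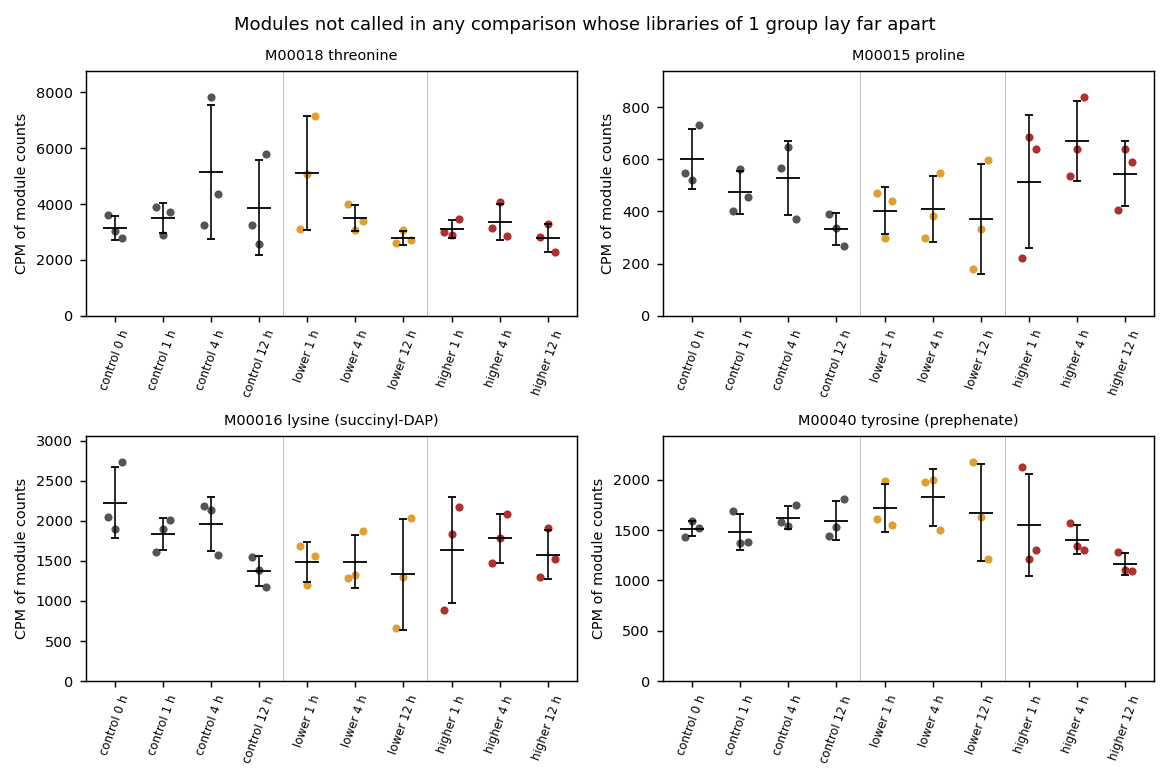
CPM of module counts in all 30 libraries for 4 modules that edgeR called in 0 of 16 comparisons with all libraries; points are libraries, bars the mean and SD of 3, grey controls, yellow lower copper and red higher copper. Threonine synthesis (M00018) has single libraries at 7829, 7164 and 5791 CPM in different groups, and at 12 h after lower copper proline synthesis (M00015) is lowest in the library where the arogenate route (M00040) is highest.

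Modules of linked metabolism were read from a list of 18 identifiers, 13 of which were in the table. At 4 h after higher copper 1 of the 13 rose (photorespiration) and 2 fell, 23.1% of the list beside 8.47% of all 236 modules. The median log2 fold change was 0.03, beside 0.02 over all 236. The methionine salvage pathway (M00034), which returns the sulfur of spent S-adenosylmethionine to methionine, fell by 0.47 ± 0.097 at 4 h (edgeR adjusted p = 0.00216). Its controls held 11965, 10177 and 11576 CPM and higher copper 8877, 7978 and 7542 CPM, without overlap. The salvage call held under all alternatives run (log2 -0.44 without the doubted controls, adjusted p = 0.0155). Glutathione synthesis (M00118), whose substrates include the amino acids glutamate, cysteine and glycine, held 1315, 1168 and 1036 CPM in controls and 699.9, 694 and 702 CPM after higher copper. It fell by 0.75 ± 0.18 (adjusted p = 0.00512), also under all alternatives run (log2 -0.83 ± 0.21 without the doubted controls, adjusted p = 0.0117).

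At 1 h after higher copper 1 of the 13 rose (photorespiration, log2 0.53 ± 0.099, edgeR adjusted p = 0.00452) and 0 fell, 7.69% of the list beside 5.08% of all modules. Without the doubted controls the value was 0.57 (adjusted p = 0.00831). The call was lost in a fit of only the 2 groups, with the doubted labels exchanged, and without replicates 1 or 2 of control 1 h or replicate 2 of higher copper 1 h (0.0503 to 0.0873 without 1 library). At 12 h 1 rose (photorespiration, 0.46 ± 0.099, adjusted p = 0.00337, under all alternatives run) and 2 fell, 23.1% of the list beside 16.5% of all modules. The falls were glutathione synthesis (-0.63 ± 0.18, adjusted p = 0.0163) and tyrosine degradation (M00044), which fell by 0.57 ± 0.19 (adjusted p = 0.0417), from 223 ± 19.1 to 150.4 ± 2.82 CPM. The glutathione call was lost without replicates 2 or 3 of control 12 h or replicate 3 of higher copper 12 h (0.0531 to 0.122). The tyrosine degradation call was lost without any of the libraries compared other than control 12 h replicate 1, and without control 0 h replicate 2 (0.05 to 0.125).

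In the controls 1 of the 13 rose and 1 fell from 0 to 4 h (15.4% of the list beside 5.08% of all modules), and 1 rose and 2 fell from 0 to 12 h (23.1% beside 8.47%). Methionine salvage fell by 0.39 ± 0.097 from 0 to 4 h (edgeR adjusted p = 0.0225). Glutathione synthesis fell by 0.65 ± 0.18 from 0 to 12 h (adjusted p = 0.0225), and the GABA shunt (M00027), a bypass of the citrate cycle that starts from glutamate, by 0.38 ± 0.11 (adjusted p = 0.0365). With both doubted controls left out, 0 of the 13 were called from 0 to 4 h by edgeR (photorespiration 0.32 ± 0.11, adjusted p = 0.19; methionine salvage -0.43 ± 0.12, adjusted p = 0.127; unadjusted p = 0.00967 and 0.00153), and 3 from 0 to 12 h. Single libraries also ended calls from 0 to 4 h. For photorespiration these were, of the controls, replicates 1 and 3 at 0 h, 1 at 1 h and 3 at 4 h, and replicate 2 of lower copper at 4 h (0.0501 to 0.187). For methionine salvage they were replicates 1 and 3 at 0 h and 2 and 3 at 4 h of the controls (0.0739 to 0.147). From 0 to 12 h, glutathione was lost without replicates 1 or 3 at 0 h or 2 or 3 at 12 h of the controls (0.0556 to 0.145). The GABA shunt was lost in a fit of only the 2 groups and without any of 12 libraries (0.0511 to 0.226): all 3 controls at 0 h, replicate 3 at 4 h and replicates 2 and 3 at 12 h of the controls, replicates 2 and 3 at 1 h and all 3 at 4 h of lower copper, and replicate 2 of higher copper at 1 h.

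Lower copper gave 0 called of these 13 at each time by edgeR (1, 3 and 1 at an unadjusted p under 0.05, beside 20, 16 and 16 of all 236). At 4 h photorespiration was called higher after higher than after lower copper, at 43978 against 33039 CPM (7.69% of the list beside 0.847% of all modules). This call was lost without any 1 of 21 libraries (edgeR adjusted p 0.0509 to 0.368). It was also lost in a fit of only the 2 groups, with the doubted labels exchanged and with both doubted controls left out (0.43, adjusted p = 0.0718). Assimilatory nitrate reduction (M00531), which supplies the ammonium, was called in 0 of 16 comparisons by edgeR, and its libraries of 1 group lay as far apart as 1443, 16423.5 and 1682 CPM (control 12 h). At 1 h after higher copper it held 11664 to 21573 CPM against 4607 to 7999 CPM in controls, without overlap, and did not pass. At 4 and 12 h higher copper overlapped with its control.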

How the data were processed

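RNA was extracted with TRIzol and sequenced from stranded TruSeq mRNA libraries in single reads, per the labels' protocols. The deposited count tables hold raw read counts per KEGG module and per gene, not normalized by the authors. Per the series' design text, reads were assigned by homology to KEGG. Aligner, counter, strandedness of counting and reference build: not given in the sources used here. DESeq2 is named in the submitters' processing notes. The authors' own comparison tables of single genes were not used, since no file pairs genes with modules. A single line without a gene name in the gene counts held 0.000377% of the counts and was left out, and that table served only for the ratio of module to gene counts.

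All 236 modules were fitted in R 4.3.3 with edgeR 4.0.16 (TMM scaling, no filter on low counts, 1 mean per group, 20 residual degrees of freedom, quasi-likelihood test). The 16 comparisons were 6 of copper against control, 3 of higher against lower copper, 3 of controls against 0 h and 4 of a copper effect between times. P-values were adjusted by Benjamini-Hochberg over all modules within a comparison, with a threshold of 0.05. The standard error is the absolute log2 fold change over the root of F. The procedure was tested on simulated data, drawn independently for each module with changes set in 1 group. Shared families, modules that vary together and doubted labels were not part of that simulation. Alternatives used DESeq2 1.42.0, its size factors, filterByExpr, a replicate block, only the groups compared, the 2 doubted controls left out or exchanged, and each library left out.

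Same-numbered libraries deviated together, with every pair's correlation over 0.1, in 1 of 12 comparisons of 2 groups (higher copper against control at 1 h, r from 0.302 to 0.610). There the numbers may pair the samples, and 1 of the pairs rests on the doubted control 1 h replicate 3. The block kept the same 3 calls. It fits replicate shifts common to all 10 groups, so it cannot take up a pairing seen in 1 comparison only. A fit paired within that comparison was not run. All modules of the list present were named, with values in every library for those called. The members, lists and doubted libraries were chosen with earlier results of these data known.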

Additional observations from a re-analysis of the deposited data

How the results depend on the processing

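Calls of single modules held in 358 and were lost in 92 refits without 1 library, and held in 84 and were lost in 21 under the other alternatives, with no direction turned. The number of amino acid modules called moved by over 1.5 times in these cases. With the DESeq2 test it was 1 in place of 0 for lower copper at 12 h against control, 1 in place of 0 for higher against lower copper at 4 h, and 5 in place of 3 for control 12 h against 0 h. With only the groups compared it was 0 in place of 3 for higher copper at 1 h and 1 in place of 3 for control 4 h against 0 h. Both doubted controls left out gave 1 in place of 2 for higher copper at 12 h and 1 in place of 3 for control 4 h against 0 h. Their labels exchanged gave 1 in place of 3 for higher copper at 1 h and 1 in place of 3 for control 4 h against 0 h. With the replicate block the count was 5 in place of 3 for control 12 h against 0 h, where M00028 and M00527 were added (edgeR adjusted p = 0.0499 for both). At 12 h after higher copper the block, the DESeq2 test and only the groups compared each gave 3 in place of 2, and the block added serine synthesis (edgeR adjusted p = 0.0455). In these 2 comparisons 0 pairs of same-numbered libraries had a correlation over 0.1 (highest r 0.077 and 0.025). With 3 libraries a group this cannot exclude a shared source. The block changed no other count of amino acid modules.

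Leaving out each library in turn, the counts ran from 0 to 3 for higher copper at 1 h, 3 to 5 at 4 h and 0 to 3 at 12 h, from 0 to 1 for lower copper at 12 h and for higher against lower copper at 12 h, from 1 to 3 for control 4 h and 1 to 5 for control 12 h against 0 h, and were 0 for the other 9 comparisons. Over all 236 modules, higher against lower copper at 12 h gave 2 calls, 14 with DESeq2 and 12 with the replicate block, and at 4 h 2, 11 and 4. Control 1 h against 0 h gave 1, 5 and 8. Both doubted controls left out gave 6 in place of 12 at 1 h after higher copper and 1 in place of 12 for control 4 h against 0 h.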
